A study of Mus musculus with 12 samples.

Results

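The genes described here are the sulfotransferases and the enzymes that supply the cofactors of drug conjugation in the liver, 9 of the 45777 genes in the table. They were chosen by symbol and function, with earlier results of these data known: the cytosolic sulfotransferases *Sult1a1*, *Sult1b1*, *Sult1c2*, *Sult1d1* and *Sult5a1*, the PAPS synthases *Papss1* and *Papss2*, and *Ugdh* and *Ugp2*, which lie on the route to UDP-glucuronate. All 9 were counted in each of the 12 livers, with at least 69 reads in each, and all 9 passed the filter on low counts in each of the 6 comparisons. RNA was sequenced from livers of male C57BL/6 mice in 4 groups of 3, in which WT mice and mice labelled *Gna12* KO (Gα12-/-) each received vehicle or APAP. The drug APAP (acetaminophen) relieves pain and damages hepatocytes in overdose. It was injected once into the peritoneum at 300 mg/kg, and the livers were taken after 6 h. The mice had been fasted overnight and were 10 to 12 weeks old by the labels, and the WT mice were age-matched littermates of the KO line.

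The liver makes a drug such as APAP soluble by attaching sulfate or glucuronate to it. Cytosolic sulfotransferases take the sulfate from PAPS, which the PAPS synthases make from ATP and inorganic sulfate. UDP-glucuronosyltransferases take the glucuronate from UDP-glucuronate, which UDP-glucose dehydrogenase (*Ugdh*) makes from the UDP-glucose that UDP-glucose pyrophosphorylase (*Ugp2*) provides. The part of the dose that is conjugated by neither route can be oxidized to a reactive quinone imine.

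Total counts ranged from 49737950 to 69566079 per liver. *Gna12* itself was counted 1193 to 4373 times in the 6 WT livers and 2472 to 4003 times in the 6 livers labelled KO. These counts went against the KO label, but counts per gene do not show which exons were read. The paper checked the knockout by PCR of tail DNA and qRT-PCR of liver, in mice not stated to be those sequenced. It also blotted the protein made by *Gna12* in WT and KO livers and in WT and KO primary hepatocytes. The livers are named by their labels. WT APAP replicate 1 stood apart, with 238212 reads of the hemoglobin gene *Hba-a1* against 2551 to 7713 in the other livers. The 6 hepatocyte markers (among them *Alb* and *Ttr*) were present in every group and none was called in any comparison. Of 8 markers of pericentral hepatocytes, 7 were lower after APAP over all livers, where 11.4% of all genes tested were called lower. Under the KO label 7 were called lower (9.60% of all genes), and in WT 2 (0.427%). The summed level of the 8 markers was 9249 to 10667 CPM (read counts scaled to the size of each library by the TMM method) in the vehicle livers. It was 3688 to 6036 CPM in the APAP livers. *Glul*, which marks the hepatocytes next to the central vein, fell by 2.25 on the log2 scale over all livers. The marker *Axin2* had a positive value (0.65, SE 0.33, adjusted p = 0.168) and was called higher under the KO label (0.85, adjusted p = 0.0344). Of 8 markers of periportal hepatocytes, 3 were lower over all livers, 2 under the KO label and 0 in WT, beside the same shares of all genes. These 8 markers summed to 9668 to 17925 CPM in the vehicle livers and 9100 to 10924 CPM in the APAP livers. Markers of bile duct cells summed to 12.1 to 26.4 CPM in the vehicle livers and 27.9 to 74.4 CPM in the APAP livers. Those of neutrophils summed to 0.169 to 14.4 and 0.286 to 116 CPM, and the highest value of each was in WT APAP livers. Over all livers 2 of 5 bile duct markers tested were called higher (14.0% of all genes), *Sox9* (3.20) and *Epcam* (0.82). *Krt7*, *Krt19* and *Spp1* (0.32, 0.46 and 0.04) were not. Of 4 neutrophil markers tested over all livers, 0 were called, and none was called in any other comparison. Whether any of these differences had a part in the changes of the conjugation genes was not tested. In whole liver, fewer cells of a type and less RNA per cell cannot be told apart.

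After APAP, *Ugdh* rose, *Papss2* and *Sult1d1* fell, and *Ugp2* and *Papss1* passed no test. In WT livers 1 of the 9 genes was higher (*Ugdh*) and 2 were lower (*Sult1d1* and *Papss2*) by edgeR's quasi-likelihood test at an adjusted p under 0.05, where 1.62% of the 15693 genes tested were called higher and 0.427% lower. Under the KO label 1 was higher (*Ugdh*) and 5 were lower (*Sult1b1*, *Sult1c2*, *Sult1d1*, *Sult5a1* and *Papss2*), where 13.0% of 15665 genes were called higher and 9.60% lower. Over all 12 livers, with the genotype label as a covariate, 1 was higher (*Ugdh*) and 4 were lower (*Sult1a1*, *Sult1b1*, *Sult1d1* and *Papss2*), against 14.0% of 16509 genes called higher and 11.4% lower. The median log2 fold change of the 9 genes over all livers was -0.85, and that of all genes tested was 0.01. With 6 APAP livers against 6 vehicle livers, the CPM values did not overlap for *Ugdh* on the higher side (7.07% of the genes tested) and for *Papss2* and *Sult1d1* on the lower side (5.38%). Without WT APAP replicate 1, 7 of the 9 genes were called over all livers in place of 5, the added genes being *Sult1c2* and *Sult5a1*, while the calls over all genes went from 4187 to 4811.

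**Figure D1:**
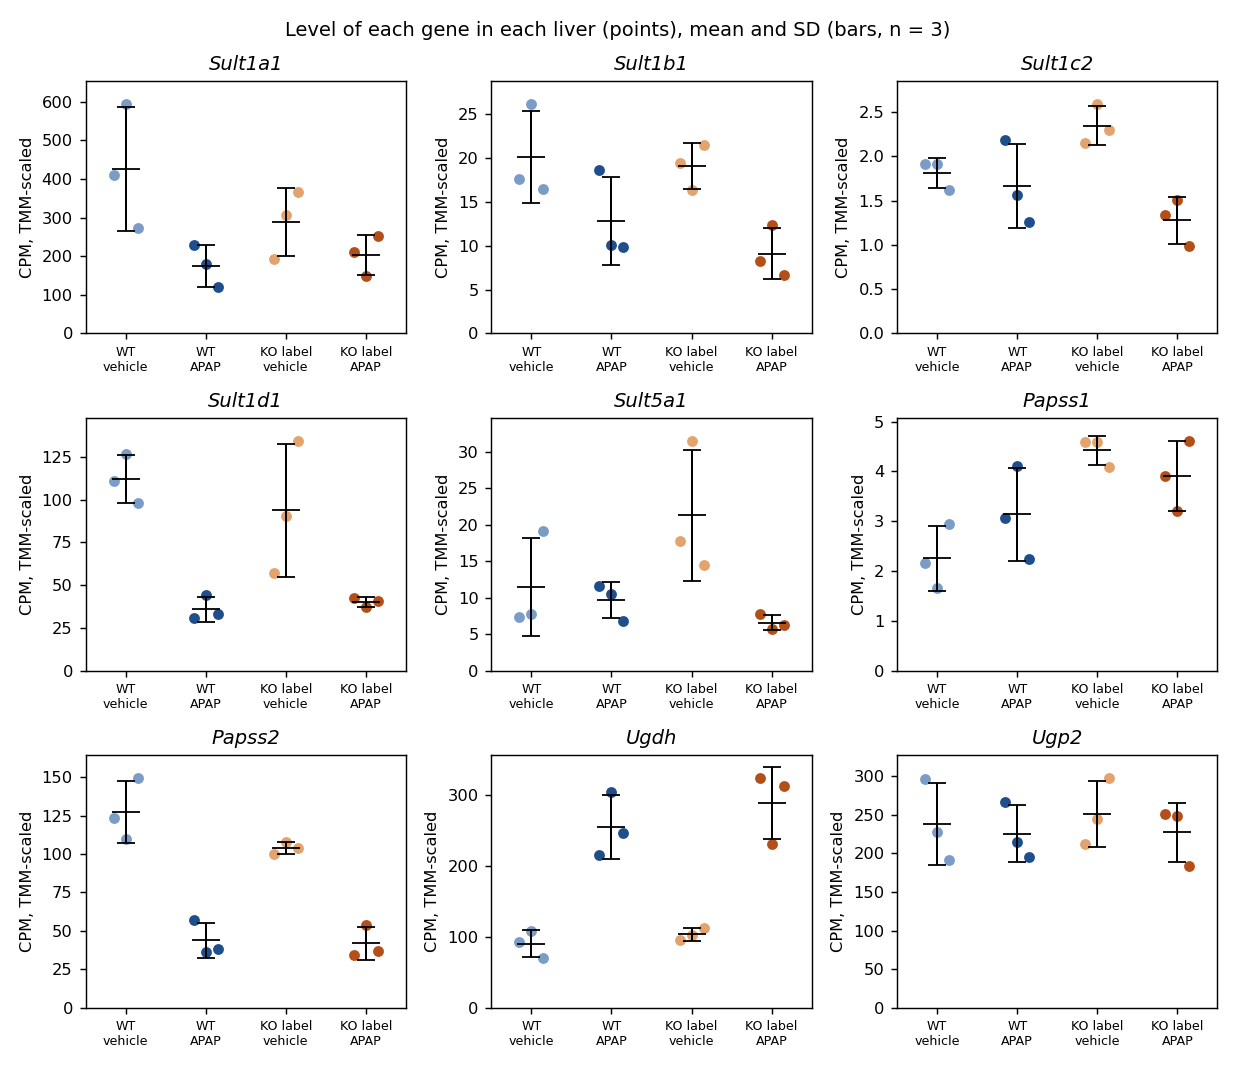
Level of each of the 9 genes in each of the 12 livers, in CPM after TMM scaling on an axis that starts at 0, by group. Points are livers, and bars give the mean and SD of 3 livers. The 6 APAP livers sit above the 6 vehicle livers for *Ugdh* and below them for *Papss2* and *Sult1d1*, while the groups of *Ugp2* overlap.

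The DNA before the start of the 3 genes called under both labels is shown, since these are the genes on which the comparison turned. The sequences are from the RefSeq promoter windows of GRCm38.p6, the 250 bases before a gene's start, read 5′ to 3′ on the gene's strand and cut before the first base that GENCODE assigns to an exon. They cover chr5:65435950-65436092 (minus strand) for *Ugdh*, chr5:87569028-87569256 (minus strand) for *Sult1d1* and chr19:32595465-32595714 (plus strand) for *Papss2*, the latter being the first of its 2 listed starts. Capitals mark a match, on either strand, to the antioxidant response element (TGACNNNGC) or to the core of the xenobiotic response element (GCGTG).
Ugdh: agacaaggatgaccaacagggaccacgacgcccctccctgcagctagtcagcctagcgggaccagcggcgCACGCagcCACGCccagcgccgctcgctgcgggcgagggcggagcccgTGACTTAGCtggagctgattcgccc
Sult1d1: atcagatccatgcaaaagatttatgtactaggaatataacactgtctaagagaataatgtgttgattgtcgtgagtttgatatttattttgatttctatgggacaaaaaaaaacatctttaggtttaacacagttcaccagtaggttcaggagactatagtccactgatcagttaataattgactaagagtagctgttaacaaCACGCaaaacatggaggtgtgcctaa
Papss2: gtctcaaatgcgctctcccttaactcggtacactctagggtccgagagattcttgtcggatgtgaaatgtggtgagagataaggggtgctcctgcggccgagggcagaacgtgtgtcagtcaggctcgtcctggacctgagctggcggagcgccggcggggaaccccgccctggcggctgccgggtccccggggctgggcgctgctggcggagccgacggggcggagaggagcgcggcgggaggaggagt
In the *Ugdh* window the antioxidant motif matched on the plus strand 132 bases before the start, and the xenobiotic motif matched on the minus strand 180 and 172 bases before it. A further minus-strand match of the antioxidant motif, 94 bases before the start, overlaps a plus-strand match of the xenobiotic motif and lies in the part that GENCODE counts as exon, which is not printed. The *Sult1d1* window held 1 xenobiotic motif, on the minus strand 47 bases before the start, and the *Papss2* window held neither. Among the 13 windows listed for the 9 genes, 1 held the antioxidant motif and 6 the xenobiotic motif, against 10.2% and 28.2% of 32851 windows of the same length in the genome. The AP-1 site (TGANTCA), the amino acid response element (TGATGNAA) and the TATA box (TATAAA) matched in 0 of the 13 windows, and in 6.75%, 3.45% and 12.4% of all windows. A match describes these letters and is no evidence of binding.

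*Sult1a1* (gene ID 20887, chr7:126672865-126690443) encodes the phenol sulfotransferase, which sulfates small phenols such as APAP, and it had the highest mean of the sulfotransferase genes in the WT vehicle livers on the authors' TPM scale, which is per transcript length. Its level was 411, 594 and 273 CPM with vehicle in WT, in the order of the replicates, and 229, 179 and 119.5 CPM after APAP. In the livers labelled KO it was 193, 308 and 365 CPM with vehicle and 209.8, 149.8 and 253 CPM after APAP. The WT groups did not overlap, while under the KO label the lowest vehicle liver lay within the range of the APAP livers. The fall over all livers was 0.89 on the log2 scale (that is, a log2 fold change of -0.89, SE 0.26, adjusted p = 0.0229), or 1.85-fold. Neither label alone gave a call, with a log2 fold change of -1.26 (SE 0.35, adjusted p = 0.121) in WT and -0.49 (SE 0.26, adjusted p = 0.215) under the KO label, which was -0.28 without KO vehicle replicate 3 and -0.31 without KO APAP replicate 2. The call over all livers was lost without WT APAP replicate 3 (log2 fold change -0.74, adjusted p = 0.0530) or KO vehicle replicate 3 (-0.85, adjusted p = 0.0522). On the authors' TPM the mean changed from 514 ± 178 to 196 ± 53.2 TPM in WT and from 355 ± 55.1 to 301 ± 79.3 TPM under the KO label (SD, n = 3). Of the 50-base runs of its transcripts, 6.58% also occur in 1 other gene, and 61 of its exon bases overlap *Sgf29* on the opposite strand, so a small part of its reads may be assigned uncertainly.

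*Sult1d1* (gene ID 53315, chr5:87554650-87569006) encodes a sulfotransferase of catecholamines and other small amines and phenols. It was counted at 111, 127 and 98.4 CPM in the WT vehicle livers and at 30.8, 44.4 and 32.8 CPM in the WT APAP livers. In the livers labelled KO the values were 56.9, 90.3 and 134 CPM with vehicle and 42.4, 37.1 and 41.0 CPM after APAP. Every APAP liver was below every vehicle liver, and the vehicle livers labelled KO were spread widely while the APAP livers lay close together. The log2 fold change was -1.63 (SE 0.20, adjusted p = 0.0114) in WT, -1.21 (SE 0.27, adjusted p = 0.0164) under the KO label and -1.43 (SE 0.19, adjusted p = 0.000213) over all livers, the last being 2.69-fold. Under the KO label the call was lost without KO vehicle replicate 2 (-1.25, adjusted p = 0.0511) or KO APAP replicate 3 (-1.22, adjusted p = 0.0533).

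*Sult1b1* (gene ID 56362, chr5:87513327-87538195), which encodes a sulfotransferase of thyroid hormones and phenols, lies on the same chromosome as *Sult1d1*. Its level was 17.7, 26.2 and 16.5 CPM in WT vehicle livers and 18.6, 10.1 and 9.84 CPM in WT APAP livers. With the KO label it was 19.4, 16.3 and 21.6 CPM with vehicle and 8.24, 12.3 and 6.72 CPM after APAP. On CPM the WT groups overlapped through WT APAP replicate 1, whereas the groups labelled KO did not. The TMM scaling factor of that liver was 0.762, against 0.890 to 1.14 in the others. On the authors' TPM the WT groups were separate too, at 9.93 to 14.9 TPM with vehicle and 6.38 to 7.46 TPM after APAP. It fell under the KO label (log2 fold change -1.06, SE 0.23, adjusted p = 0.0143) and over all livers (-0.85, SE 0.21, adjusted p = 0.0104), and the value in WT was -0.63 (SE 0.31, adjusted p = 0.349). The WT value was -1.02 without WT APAP replicate 1 and -0.40 without WT vehicle replicate 2. The call under the KO label was lost without KO vehicle replicate 3 (-0.96, adjusted p = 0.0545).

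*Sult5a1* (gene ID 57429, chr8:123142843-123158914) encodes a sulfotransferase whose substrates are little known. Its values were 7.35, 7.71 and 19.2 CPM in WT vehicle livers and 11.5, 10.5 and 6.85 CPM in WT APAP livers. In the livers labelled KO they were 17.8, 31.4 and 14.5 CPM with vehicle and 7.70, 5.66 and 6.30 CPM after APAP. The WT groups overlapped, with WT vehicle replicate 3 far above the other WT livers, and the groups labelled KO were separate. The log2 fold change was -1.68 (SE 0.28, adjusted p = 0.00531) under the KO label, the largest fall among the 9 genes in that comparison, and -0.23 (SE 0.41, adjusted p = 0.804) in WT. The difference between these effects was -1.46 on the log2 scale (SE 0.55, unadjusted p = 0.0209 and adjusted p = 0.872 by edgeR's interaction test), so a difference between the labels was not shown. Over all livers the value was -0.97 (SE 0.34, adjusted p = 0.0549), and it passed the threshold without WT APAP replicate 1 (-1.10, adjusted p = 0.0307). The same held without WT vehicle replicate 1, WT vehicle replicate 2 or WT APAP replicate 2 (adjusted p = 0.0256, 0.0208 and 0.0493). Without WT vehicle replicate 3 the WT value turned to 0.35.

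*Sult1c2* (gene ID 69083, chr17:53829637-53845958), a member of the family that sulfates phenols and arylhydroxamic acids, was scarce. Its level was 1.92, 1.91 and 1.62 CPM in WT vehicle livers and 2.19, 1.56 and 1.26 CPM in WT APAP livers. With the KO label the values were 2.15, 2.59 and 2.30 CPM with vehicle and 1.34, 1.51 and 0.991 CPM after APAP. The WT groups overlapped and the groups labelled KO did not, at 69 to 133 reads per liver. The log2 fold change was -0.11 (SE 0.32, adjusted p = 0.892) in WT and -0.86 (SE 0.25, adjusted p = 0.0404) under the KO label. The latter was a weak call: it was lost without any of KO vehicle replicates 1, 2 and 3 or KO APAP replicates 1 and 3 (adjusted p = 0.0689, 0.120, 0.0843, 0.0803 and 0.112), and with no filter on low counts (adjusted p = 0.0504). Over all livers the value was -0.49 (SE 0.21, adjusted p = 0.105), and it passed the threshold without WT APAP replicate 1 (-0.64, adjusted p = 0.0176).

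**Figure D2:**
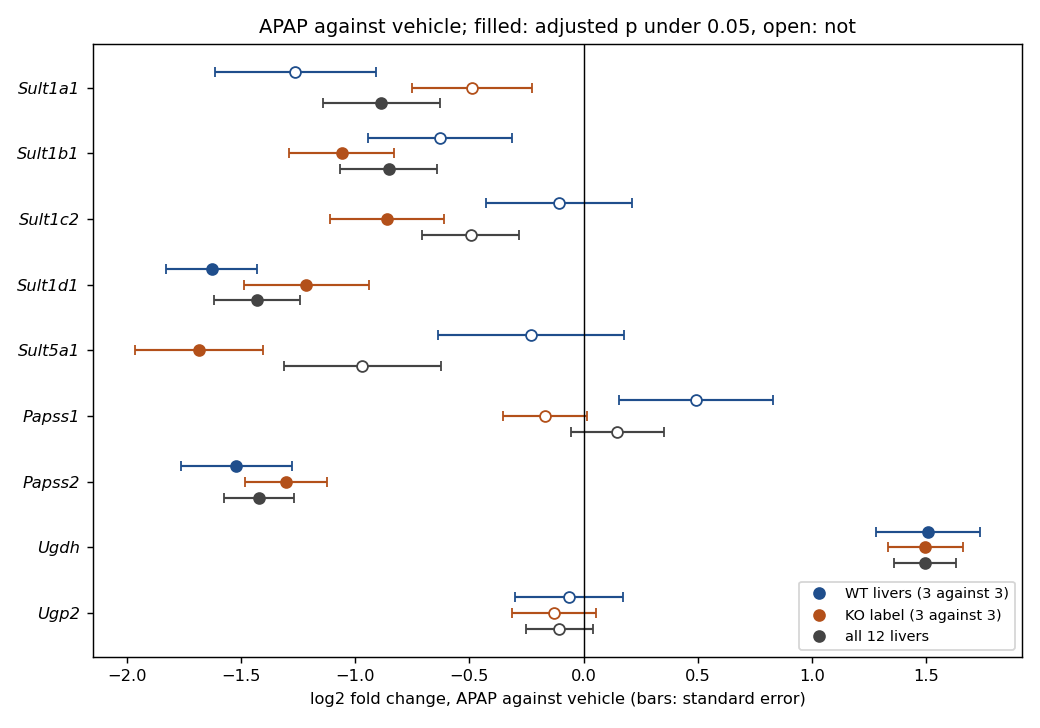
Log2 fold change of APAP against vehicle (horizontal axis, bars give the standard error) for the 9 genes in WT livers, in livers labelled KO and over all 12 livers. Filled points passed an adjusted p under 0.05 and open points did not. *Ugdh* lies near 1.5 in all 3 comparisons, and *Papss2* and *Sult1d1* are filled on the negative side in all 3.

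Summed over the 21 cytosolic sulfotransferase genes of the table, the authors' TPM were 1006, 1051 and 797 in the WT vehicle livers and 491, 534 and 463 in the WT APAP livers. Under the KO label the sums were 856, 923 and 1003 TPM with vehicle and 646, 626 and 645 TPM after APAP. Every APAP liver had a lower sum than every vehicle liver. The mean went from 951 ± 135 to 496 ± 35.7 TPM in WT and from 927 ± 73.8 to 639 ± 11.3 TPM under the KO label (SD, n = 3). The sum rested on 2 genes, *Sult1a1* and *Sult2a8*, a bile acid and steroid sulfotransferase gene that is not among the 9. *Sult1a1* made up 52.9% ± 11.9 of it in WT vehicle livers and 39.1% ± 7.75 in WT APAP livers, and 38.2% ± 4.40 and 47.0% ± 11.7 under the KO label. The share of *Sult1d1* was 7.72% ± 0.336 and 4.64% ± 1.89 in WT, and 6.57% ± 1.02 and 4.99% ± 0.439 under the KO label. Of the 21 genes, 8 reached a mean of 1 TPM in any group and 9 had no read in any liver. These sums were not tested.

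*Papss2* (gene ID 23972, chr19:32595669-32667187) encodes the main PAPS synthase of the liver. Its level was 123, 109.6 and 149 CPM in WT vehicle livers and 57.0, 36.2 and 38.4 CPM in WT APAP livers. In the livers labelled KO it was 100.2, 108 and 104 CPM with vehicle and 34.6, 53.7 and 37.0 CPM after APAP. The lowest vehicle liver lay well above the highest APAP liver, which on CPM was WT APAP replicate 1. On the authors' TPM, WT APAP replicate 1 was the lowest of the APAP livers (15.8 TPM) and KO APAP replicate 2 the highest (27.1 TPM). *Papss2* fell under both labels, with a log2 fold change of -1.52 (SE 0.24, adjusted p = 0.0273) in WT, -1.30 (SE 0.18, adjusted p = 0.00278) under the KO label and -1.42 (SE 0.15, adjusted p = 5.28e-05) over all livers, or 2.68-fold. Without WT APAP replicate 1 the WT value was -1.78 (adjusted p = 0.0179).

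*Papss1* (gene ID 23971, chr3:131564764-131643671), the other PAPS synthase gene, was present at 2.16, 1.66 and 2.94 CPM in WT vehicle livers and 3.07, 4.11 and 2.24 CPM in WT APAP livers. The livers labelled KO had 4.59, 4.60 and 4.09 CPM with vehicle and 3.91, 3.21 and 4.61 CPM after APAP. The APAP and vehicle groups overlapped under both labels, with log2 fold changes of 0.49 (SE 0.34, adjusted p = 0.487) in WT and -0.17 (SE 0.18, adjusted p = 0.545) under the KO label. With 1 liver left out the WT value lay between 0.24 (without WT APAP replicate 2) and 0.71 (without WT vehicle replicate 3), and that under the KO label between -0.29 and -0.05 (without KO APAP replicates 3 and 2). With vehicle, all 3 livers labelled KO were above all 3 WT livers on CPM. The same was seen for *Sult1c2*, and the reverse for *Papss2*. The share of all genes separated in this way was not counted. On the authors' TPM *Papss1* stayed separate, at 2.05 to 3.33 TPM under the KO label and 0.910 to 1.65 TPM in WT. The ranges overlapped on TPM for *Sult1c2* (2.08 to 2.93 and 1.67 to 2.25 TPM) and *Papss2* (38.1 to 53.9 and 43.7 to 62.7 TPM). For *Papss1* the difference was 0.97 on the log2 scale (SE 0.25), with an unadjusted p = 0.00449 and an adjusted p = 0.505 by edgeR. It passed only with DESeq2's Wald test among the alternatives run (0.97, adjusted p = 0.0437). By limma on log2(TPM + 1) it was 0.61. *Papss1* was a minor share of the pair throughout. *Papss2* made up 97.7% ± 0.265 of the TPM of both genes in WT vehicle livers and 90.9% ± 3.52 in WT APAP livers, and 94.5% ± 0.366 and 88.3% ± 3.76 under the KO label (SD, n = 3). The summed TPM of both genes went from 56.2 ± 10.3 to 18.9 ± 2.15 in WT and from 49.8 ± 8.74 to 24.5 ± 4.16 under the KO label.

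*Ugdh* (gene ID 22235, chr5:65413207-65435842), whose product oxidizes UDP-glucose to UDP-glucuronate, was the one gene of the 9 that rose. It was counted at 92.2, 109 and 70.9 CPM in WT vehicle livers and at 216, 304 and 246 CPM in WT APAP livers. The livers labelled KO had 95.5, 102 and 113 CPM with vehicle and 324, 231 and 314 CPM after APAP. The lowest of the 6 APAP livers, WT APAP replicate 1, was above the highest of the 6 vehicle livers. The log2 fold change was 1.51 (SE 0.23, adjusted p = 0.0226) in WT, 1.50 (SE 0.16, adjusted p = 0.00110) under the KO label and 1.49 (SE 0.14, adjusted p = 1.33e-05) over all livers, or 2.81-fold. The effects under the labels differed by -0.01 (SE 0.28, adjusted p = 0.998). Of its exon bases, 158 overlap *Gm43552* on the same strand, and 1.84% of its 50-base runs occur in other genes, so the reads of this stretch cannot be told apart.

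*Ugp2* (gene ID 216558, chr11:21321126-21371267), which provides UDP-glucose both for glycogen and for *Ugdh*, was at 296, 228 and 191 CPM in WT vehicle livers and 266, 215 and 195 CPM in WT APAP livers. The livers labelled KO had 212, 244 and 297 CPM with vehicle and 250.5, 248 and 183 CPM after APAP. The groups overlapped under both labels. The log2 fold change was -0.06 (SE 0.23, adjusted p = 0.915) in WT, -0.13 (SE 0.18, adjusted p = 0.642) under the KO label and -0.11 (SE 0.15, adjusted p = 0.636) over all livers. With 78 exon bases it overlaps *Gm12043* on the opposite strand. The ratio of *Ugdh* to *Ugp2* on the TPM scale was 0.441 ± 0.0976 in WT vehicle livers and 1.33 ± 0.371 in WT APAP livers, and 0.479 ± 0.0382 and 1.50 ± 0.445 under the KO label (SD, n = 3).

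The opposite changes of *Ugdh* and *Papss2* appear in their ratio on the TPM scale. It was 1.12, 1.49 and 0.704 in WT vehicle livers and 5.67, 12.5 and 9.64 in WT APAP livers. For the KO label it was 1.43, 1.42 and 1.62 with vehicle and 14.0, 6.47 and 12.6 after APAP. The transcripts of both genes were thus near parity in the vehicle livers, and *Ugdh* was in excess in every APAP liver. With the group means removed, the log2 CPM values of both genes had a Pearson correlation of -0.87 over the 12 livers, which is a description over livers that share their groups and library scaling. On the CPM scale, in every group but the vehicle livers labelled KO, the liver with the most *Ugdh* had the least *Papss2*.

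**Figure D3:**
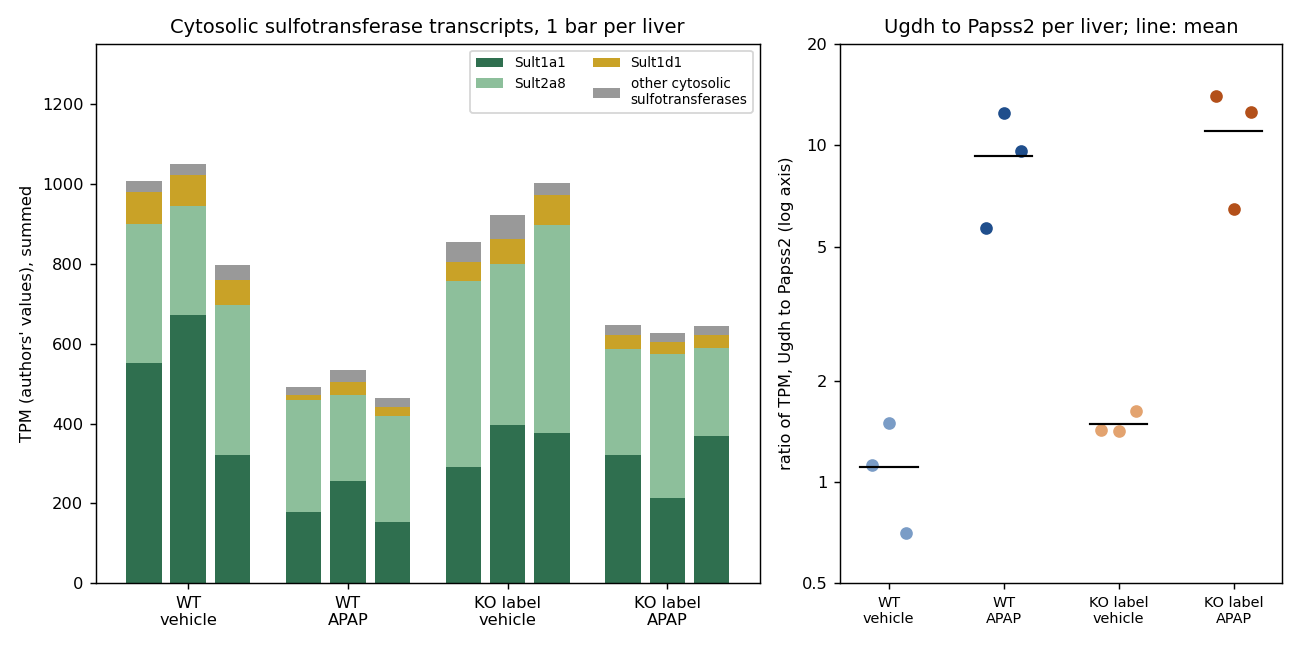
Left, summed TPM (the authors' values) of the 21 cytosolic sulfotransferase genes, 1 bar per liver on an axis that starts at 0, with *Sult1a1*, *Sult2a8* and *Sult1d1* stacked below the other genes. Right, ratio of *Ugdh* to *Papss2* TPM per liver on a log axis, with the mean of each group as a line. The sums are 797 to 1051 TPM in the vehicle livers and 463 to 646 TPM in the APAP livers, and the ratios are 0.704 to 1.62 and 5.67 to 14.0.

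The 3 calls in WT depended on single livers. Without WT vehicle replicate 1, WT vehicle replicate 3 or WT APAP replicate 3, none of the 9 genes was called, with log2 fold changes of -1.64, -1.73 and -1.56 for *Sult1d1* (adjusted p = 0.0623, 0.0558 and 0.0833). For *Papss2* they were -1.55, -1.41 and -1.43 (adjusted p = 0.114, 0.116 and 0.139), and for *Ugdh* 1.52, 1.34 and 1.53 (adjusted p = 0.130, 0.119 and 0.0992). The size of the changes was kept while the calls were lost. The calls of *Papss2*, *Ugdh* and *Sult5a1* under the KO label, and those of *Papss2*, *Ugdh*, *Sult1d1* and *Sult1b1* over all livers, held with any liver left out.

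Between the genotype labels, none of the 9 genes was called. With vehicle, 0.0262% of 15262 genes were called in either direction, and after APAP 0.0309% of 16174. By edgeR, 1 of the 9 genes (*Papss1*) had an unadjusted p under 0.05 with vehicle and 0 after APAP. DESeq2's Wald test called 1 and 0 of the 9. After APAP the value furthest from 0 was that of *Sult5a1*, -0.57 for the KO label against WT (SE 0.25, adjusted p = 0.958). The value of *Sult1b1* was -0.52 (SE 0.34) and went to -0.13 without WT APAP replicate 1 and to -0.81 without KO APAP replicate 2. The test of a difference in the APAP effect called 0 of the 9 genes and 0% of the 16509 genes tested, of which 848 had an unadjusted p under 0.05, and DESeq2's Wald test called 0 of the 9 and 9 of all genes. *Sult1a1* (0.77, SE 0.48), *Sult1c2* (-0.75, SE 0.37) and *Papss1* (-0.66, SE 0.38) had differences that did not pass the test with 3 livers a group (adjusted p = 0.875, 0.872 and 0.872). Without WT APAP replicate 1 the value of *Sult1c2* was -0.48.

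The other genes of the pathways were counted in lists. Of 16 other cytosolic sulfotransferase genes, 3 passed the filter on low counts. *Sult1e1*, the estrogen sulfotransferase, was called higher under the KO label (log2 fold change 4.00, SE 0.69, adjusted p = 0.00605) and over all livers (2.79, SE 0.52, adjusted p = 0.00210). It was scarce, at 0.440 ± 0.195 CPM in WT vehicle livers, 1.57 ± 0.405 in WT APAP livers, 0.122 ± 0.0774 in vehicle livers labelled KO and 1.92 ± 1.37 in APAP livers labelled KO (SD, n = 3). *Sult2a8* was called lower under the KO label (-0.95, SE 0.26, adjusted p = 0.0347). How much sequence *Sult2a8* shares with the other *Sult2a* genes was not measured, so its reads may be assigned uncertainly. It reached 37783 reads in a liver, and the other *Sult2a* genes reached at most 88 (*Sult2a7*). In WT livers none of the 3 was called, and over all livers 1 was, or 2 without WT APAP replicate 1.

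Of 15 genes for sulfate supply and transport and for the removal of PAP, the product left by sulfation, 13 were tested. Over all livers 3 were higher and 6 lower, under the KO label 1 and 2, and in WT 0 and 0. Among all genes tested the shares called higher and lower were 14.0% and 11.4% over all livers, 13.0% and 9.60% under the KO label, and 1.62% and 0.427% in WT. *Bpnt1* (-0.46, SE 0.08), a phosphatase that clears PAP, *Suox* (-0.55, SE 0.11), sulfite oxidase, *Tst* (-0.56, SE 0.10), a sulfurtransferase, and *Slc35b2* (-0.43, SE 0.11), which carries PAPS into the Golgi, fell over all livers. *Slc26a2*, a sulfate transporter, rose by 1.06 (SE 0.24) and *Impad1*, the Golgi PAP phosphatase, by 0.43 (SE 0.10). The list thus held calls in both directions, and its median over all livers was -0.38. Among 30 Golgi sulfotransferase genes, which use the same donor, 18 were tested over all livers and 1 was called lower, *Tpst1* (-0.44, SE 0.13), a tyrosine sulfotransferase, beside the 11.4% of all genes called lower. The cytosolic genes described above and the Golgi genes were not tested against each other.

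Of 19 genes on the way from glucose to UDP-glucuronate and in its use and transport, all 19 were tested. Over all livers 2 were higher and 6 lower, under the KO label 2 and 3, and in WT 0 and 0, beside the same shares of all genes (14.0% and 11.4% over all livers). The median of the list over all livers was -0.06. The gene listed as *Pgm1*, of the phosphoglucomutase family, rose by 1.49 (SE 0.23) over all livers, while that listed as *Pgm2* fell (-0.36, SE 0.10). By gene ID these symbols are exchanged in RefSeq's GRCm38.p6 annotation, where the one that rose is *Pgm2* and the one that fell is *Pgm1*. *Gys2*, the liver glycogen synthase, which competes for UDP-glucose, fell over all livers (-1.20, SE 0.19, adjusted p = 0.000626) and under the KO label (-1.31, SE 0.14, adjusted p = 0.000909). The transferases *Ugt1a1* (-0.73, SE 0.18) and *Ugt1a6a* (-0.57, SE 0.13) fell over all livers as well, and *Ugt1a6a* and *Ugt2b1* under the KO label (-0.76 and -1.30). The *Ugt1a* genes share exons, so their reads may be split between them. *Slc35d1*, a carrier of UDP-glucuronate into the endoplasmic reticulum, rose under the KO label (0.59, SE 0.13, adjusted p = 0.0175). Of 8 genes that remove sulfate or glucuronate, 1 was higher and 2 were lower over all livers (14.0% and 11.4% of all genes), among them *Arsg* (0.95, SE 0.25), a sulfatase, and *Gusb*, the β-glucuronidase (-0.36, SE 0.09).

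**Figure D4:**
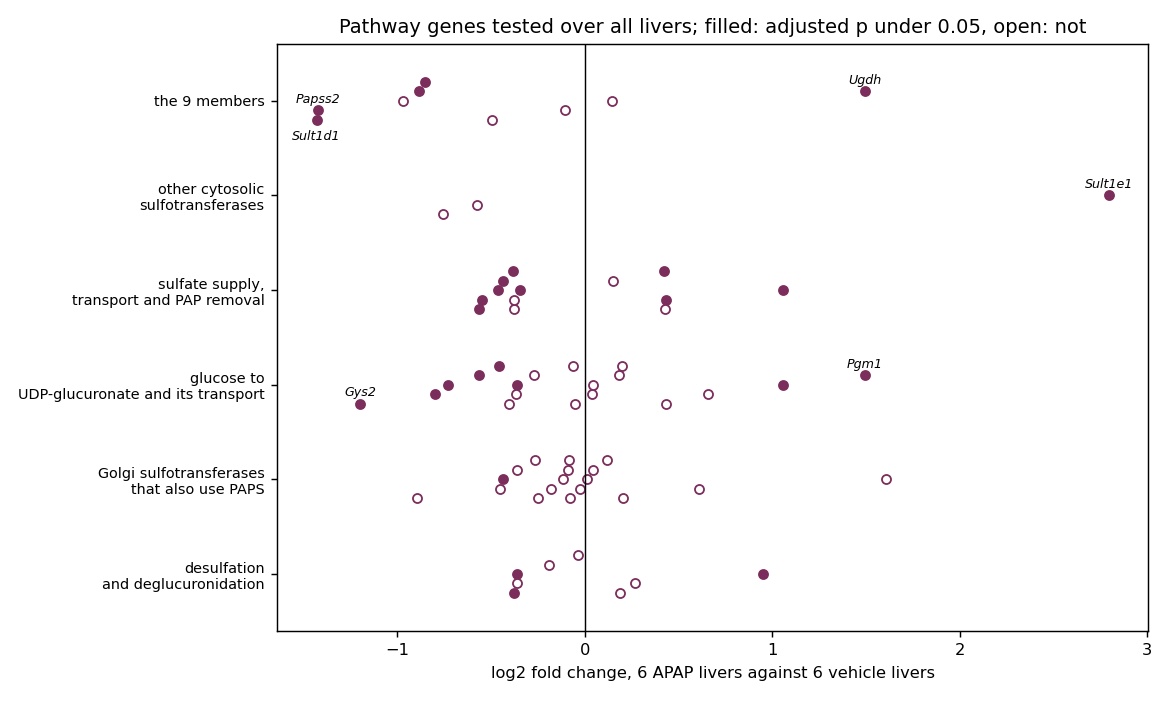
Log2 fold change of APAP against vehicle over all 12 livers (horizontal axis) for the 9 genes and for the tested genes of 5 pathway lists (rows). Each point is a gene, filled where the adjusted p was under 0.05, and the called genes furthest from 0 carry their symbol. *Ugdh* (1.49), *Papss2* (-1.42) and *Sult1d1* (-1.43) lie far from 0, as do *Sult1e1* (2.79), *Gys2* (-1.20) and the gene listed as *Pgm1* (1.49), which RefSeq calls *Pgm2*.

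The genes most like each of the 9 were sought among 10912 genes by the Pearson correlation of log2 CPM over the 12 livers, which share their groups, and the values are a description. For *Ugdh* they were *Gm15542* and *Eif2ak3* (r = 0.98 for both), the latter encoding the endoplasmic reticulum stress kinase PERK. *Papss2* was most like *Ndrg2* and *Trmt2b* (r = 0.98 for both) and *Sult1d1* most like *Polr3gl* (r = 0.96) and *Afmid* (r = 0.95). The nearest genes to *Sult1b1* were *Hnmt*, which encodes histamine N-methyltransferase, and *Sod2*, the mitochondrial superoxide dismutase (r = 0.96 for both), and those to *Sult1c2* were *Ugt2b1* (r = 0.94) and *Sept4* (r = 0.92). *Sult5a1* (*Angptl2*, r = 0.92), *Papss1* (*Mad2l1bp*, r = 0.90), *Sult1a1* (*Vrk3*, r = 0.89) and *Ugp2* (*Mkks*, r = 0.88) had no gene as close. With the group means removed, the correlation of *Ugdh* with *Eif2ak3* was 0.84 and that of *Papss2* with *Ndrg2* was 0.76. It was 0.67 for *Papss2* with *Trmt2b*, and 0.69 and 0.62 for *Sult1d1* with *Polr3gl* and *Afmid*. For *Ugdh* with *Gm15542* it was 0.87, and for *Sult1b1* with *Hnmt* and *Sod2* 0.90 and 0.93.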

How the data were processed

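Poly-A RNA of 12 livers was sequenced in stranded paired-end reads of 100 bases. Per the submitters' notes, FastQC 0.11.7, Trimmomatic 0.38, HISAT2 2.1.0, Bowtie2 2.3.4.1 and StringTie 2.1.3b were used with mm10 (GRCm38), and the role of each is not given in the sources used here. The authors deposited raw read counts per gene, FPKM (per transcript length and library) and TPM, from before the logarithm and quantile normalization of the study's own analysis. FPKM were not used. No depth-based limit was needed, since the fewest reads of any of the 9 genes in a liver was 69.

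Counts were scaled by TMM and tested with edgeR 4.0.16 (quasi-likelihood, glmQLFTest, two-sided) in R 4.3.3 after filterByExpr, and p-values were adjusted by Benjamini-Hochberg across every gene tested (threshold 0.05). CPM were computed from the same counts. Comparisons used only the 6 livers compared, except those over all 12 livers. Groups came from the sample labels. The p-values set the difference between groups against the spread between livers left by the fit, with variances moderated across genes. Replicate numbers were not taken to pair the samples, since the labels state no pairing. Genes named are the 9 members and, of each pathway list, at most 6 called genes per comparison with the smallest p, of which 2 are not reported here. The members, lists and motifs were chosen with earlier results of these data known. Alternatives were DESeq2 1.42.0 (size factors and Wald test), edgeR's newer quasi-likelihood method, no filter, at least 10 counts in every liver, limma 3.58.1 on log2(TPM + 1) or log2(TPM + 0.1) after quantile normalization, the replicate number as a block, all 12 livers in one fit, and each liver left out. Counts for the pathway lists without WT APAP replicate 1 were added after seeing the data. The code was tested on simulated data. Positions, promoters and gene overlaps came from RefSeq GRCm38.p6 and GENCODE M21.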

Additional observations from a re-analysis of the deposited data

How the results depend on the processing

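The 3 calls in WT became 0 with the replicate number as a block and ranged from 0 to 3 with 1 liver left out. Same-numbered livers had correlations of r from -0.279 to 0.0434 after removing group means. With 3 livers a group these values cannot decide whether mice were paired. The labels state no pairing, so the numbers were used as names of livers. With the block the call of *Sult1c2* under the KO label was lost too (adjusted p = 0.0636). Among the 9 genes, calls ranged from 4 to 6 under the KO label and from 4 to 7 over all livers with 1 liver left out. For KO label against WT with vehicle, 1 gene was called with DESeq2's Wald test in place of 0. The order of the 4 group means was the same on the authors' TPM as on CPM for 4 of the 9 genes. Signs turned with 1 liver left out for *Sult1c2* (-0.37 to 0.064), *Sult5a1* (-0.47 to 0.35) and *Ugp2* (-0.22 to 0.12; 0.03 without WT APAP replicate 3) in WT, and for *Ugp2* under the KO label (-0.22 to 0.011). *Sult1a1* in WT passed with DESeq2's Wald test (-1.28, adjusted p = 0.00929) and with all 12 livers in one fit (-1.27, adjusted p = 0.0387).

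Over all genes, the calls in WT were 322, from 41 to 442 with 1 liver left out, 62 with the block, 1413 with DESeq2's Wald test and 1523 with all 12 livers in one fit. Under the KO label they were 3538, from 1995 to 3368 with 1 liver left out, 2249 with all 12 livers in one fit and 4325 with DESeq2's Wald test. With vehicle, the labels differed in 4 genes, 137 with DESeq2's Wald test and 0 to 16 with 1 liver left out, and after APAP in 5, 29 and 1 to 7. The cause of these changes was not tested. With 3 livers a group, an exact permutation test cannot go below p = 0.1.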
